A study of Arabidopsis thaliana with 39 samples.

Results

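The miR164 family of Arabidopsis thaliana was described here over 13 growth and stress conditions from deposited small RNA sequencing read counts. Its members were all rows named miR164, the species prefix aside, with 1 entry for each distinct sequence. This gave 4 sequences, named miR164a, miR164b-3p, miR164c-5p and miR164c-3p, of 353 distinct mature sequences in all. All 39 libraries came from wild-type Col-0 plants, as 3 biological replicates of each of 13 groups. Rosette leaves of soil-grown plants were taken at 27 days under mild drought (D30, 30% soil water) or full watering (C30, 70%), and at 30 days under severe drought (D20, 20%) or full watering (C20, 70%). Whole seedlings aged 15 days, all kept at control conditions until day 14, made up the other groups. They had no heat (H0), 0.5 h (H0.5) or 6 h (H6) at 37 °C, or 24 h with 250 mM sodium chloride (NaCl+), without the 0.1 µM copper sulfate of the medium (Cu-), with 10 µM copper (Cu+), with 10 µM cadmium (Cd+), or with the sulfates of the medium replaced by chlorides (S-). Untreated seedlings (C) were the control of the last 5, and H0 was the control of both heat groups, so these comparisons share control libraries.

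MicroRNAs are small RNAs that guide an Argonaute protein to messenger RNAs with a matching site. In plants the pairing is nearly complete and the messenger RNA is usually cut. The miR164 family acts on messenger RNAs of NAC transcription factors. In Arabidopsis these include CUC1 and CUC2, which set the boundaries between organs, NAC1, which acts in lateral root formation, and ORE1 (here NAC6), which promotes leaf ageing. There are 3 hairpin genes in the family, and MIR164c is known for limiting petal number.

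The mature sequences are shown because most of the family's reads depend on a single base. Capitals mark the seed, bases 2 to 8 from the 5′ end.
miR164a: tGGAGAAGcagggcacgtgca
miR164c-5p: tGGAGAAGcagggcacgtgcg
miR164b-3p: cATGTGCCcatcttcaccatc
miR164c-3p: cACGTGTTctactactccaac
The first and second are the 5p strands, which carry the NAC-directed sequence. They are identical at 20 of 21 bases and differ by A21G, counted from the 5′ end with the base of miR164a first. Their seed is shared by 3 of the 353 sequences, the third being miR835-3p. The 3p strands, cut from the opposite arm of the hairpin, differ from each other at 8 of 21 bases, and neither seed is found in another counted sequence.

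By exact match to the TAIR10.1 assembly, the miR164a sequence lies on the plus strand at chr2:19520770-19520790, in the hairpin gene MIR164a (AT2G47585), and again at chr5:287586-287606, in MIR164b (AT5G01747). Reads of the shared 5p sequence from these loci cannot be told apart. The sequence of miR164c-5p lies at chr5:9852684-9852704 in MIR164c (AT5G27807), also on the plus strand. The 3p strands lie at chr5:287716-287736 in MIR164b and at chr5:9852747-9852767 in MIR164c. The annotated hairpins are printed below with the counted strands in capitals, to show how far apart the strands lie.
MIR164a: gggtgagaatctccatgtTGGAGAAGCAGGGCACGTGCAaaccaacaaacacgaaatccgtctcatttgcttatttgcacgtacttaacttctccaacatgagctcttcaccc
MIR164b: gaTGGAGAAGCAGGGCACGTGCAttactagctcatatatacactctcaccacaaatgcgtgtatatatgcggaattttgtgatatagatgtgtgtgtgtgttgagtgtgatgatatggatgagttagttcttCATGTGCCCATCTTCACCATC
MIR164c: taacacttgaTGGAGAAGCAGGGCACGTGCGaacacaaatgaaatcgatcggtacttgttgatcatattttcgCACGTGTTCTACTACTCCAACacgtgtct
The hairpins are 113, 153 and 102 bases long, in the order printed. The counted strands are 109 bases apart in MIR164b and 42 bases apart in MIR164c. No 3p strand of MIR164a was analysed here.

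The NAC messenger RNAs were searched for the best site of miR164a, with a penalty of 1 for a mismatch and 0.5 for a G:U pair. The sites are shown because they show where the base that separates the 5p members falls. Each is read 5′ to 3′ on the sense strand, with capitals for Watson-Crick pairs with miR164a, so the first base printed faces miRNA base 21.
NAC080 (AT5G07680): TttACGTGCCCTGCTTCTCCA
NAC100 (AT5G61430): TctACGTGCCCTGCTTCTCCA
NAC1 (AT1G56010): aGCACGTaCCCTGCTTCTCCA
CUC1 (AT3G15170): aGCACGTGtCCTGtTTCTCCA
CUC2 (AT5G53950): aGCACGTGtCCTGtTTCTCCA
AT3G12977: aGCAtGTaCCCTGCTTCTCCA
NAC6 (ORE1, AT5G39610): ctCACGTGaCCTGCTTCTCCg
All 7 sites lie in coding exons. They are at chr5:2436958-2436978 for NAC080, chr5:24701687-24701707 for NAC100, chr1:20947142-20947162 for NAC1, chr3:5111137-5111157 for CUC1, chr5:21902301-21902321 for CUC2, chr3:4145631-4145651 for AT3G12977 and chr5:15858797-15858817 for NAC6. The penalty was 1.5 for NAC080 and NAC100, 2.0 for NAC1, CUC1 and CUC2, 2.5 for AT3G12977 and 3.5 for NAC6. A penalty of 2.5 or less was found in 6 of 31460 genes (0.019%), and all 6 were among the 118 annotated NAC genes. A penalty of 3.5 or less was found in 18 genes, of which 7 were NAC genes. CUC3, a boundary gene of the NAC group that is not known as a miR164 target, had no window with a penalty under 8.0.

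Base 21 divides these sites. In NAC080 and NAC100 the facing base pairs with miR164a and forms a G:U pair with miR164c-5p. In NAC6 it pairs with miR164c-5p and not with miR164a. In NAC1, CUC1, CUC2 and AT3G12977 it pairs with neither. These matches describe sequence only, and no messenger RNA was measured.

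The libraries held 1018693 to 5036688 reads matched to miRNAs. These were 9.84 to 16.7% of the genome-mapped reads in the 3 NaCl+ libraries and 25.6 to 51.6% in the other 36. RNA integrity scores ran between 8.0 and 9.3. Levels are given as counts per 1000000 miRNA reads (CPM), so a change in the total of all miRNAs does not show in them. Changes are given as log2 fold changes from edgeR's quasi-likelihood test, with the stressed group over its control, and a change was called at a Benjamini-Hochberg adjusted p under 0.05 over all sequences tested in that comparison. In plant tissue, fewer expressing cells and less RNA per cell cannot be told apart.

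The family was dominated by its 5p strands. Over all libraries miR164a had 1219264 reads, 87.3% of the family, and miR164c-5p had 177411 reads, or 12.7%. The partner strands were rare, with 287 reads of miR164b-3p (0.0205%) and 87 reads of miR164c-3p (0.00623%). By mean CPM the members ranked 10, 17, 178 and 224 among the 353 sequences. miR164a had 6934 to 52854 reads in a library and miR164c-5p 690 to 9065, while miR164b-3p had 0 to 38 and miR164c-3p 0 to 6.

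Per 1000000 miRNA reads, miR164a was highest in the 4 leaf groups. Its mean was 13321 ± 351 CPM in D20, 12118 ± 1452 in C20, 11835 ± 2691 in D30 and 8849 ± 1849 in C30 (SD, n = 3 each, as for every group mean). Among seedlings it was 7774 ± 1586 CPM in H0, 7774 ± 182 in Cu-, 7581 ± 264 in S-, 7557 ± 872 in Cd+ and 7470 ± 1226 in C. The lowest means were 6939 ± 1836 CPM in NaCl+, 6937 ± 138 in Cu+, 5986 ± 2180 in H0.5 and 5875 ± 760 in H6. The highest mean was 2.27 times the lowest. No 2 groups next to each other in this order were separated, since their libraries overlapped in every case. The order depended on the denominator, and per 1000000 genome-mapped reads 11 of the 13 groups changed rank. On that scale C20 (3828 ± 859), D20 (3727 ± 367) and D30 (3719 ± 1257) came first, followed by H0 (3585 ± 872), Cu- (3331 ± 153) and C30 (3106 ± 525). NaCl+ was then last at 904 ± 243, and it was separated from H6 (2650 ± 435).

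miR164c-5p varied more, with a highest mean 4.07 times the lowest. It stood at 2706 ± 320 CPM in D20, 1988 ± 508 in C30 and 1478 ± 476 in C20. It was 1232 ± 120 CPM in Cd+, 1181 ± 224 in Cu-, 1085 ± 164 in D30, 1078 ± 93.7 in S-, 1040 ± 116 in Cu+ and 1019 ± 182 in C. The lowest were 918 ± 75.4 CPM in H0, 807 ± 406 in H6, 777 ± 168 in H0.5 and 665 ± 138 in NaCl+. Only D20 was separated from its neighbour in the order, with a lowest library of 2370 CPM against a highest of 2319 CPM in C30. D30 was the leaf group that stood among the seedling groups. Per 1000000 genome-mapped reads 8 groups changed rank, D20 (751 ± 23.9) overlapped C30 (710 ± 227), and C20 (481 ± 218) also stood among the seedling groups, below Cu- (505 ± 92.5). The only separated neighbours there were D30 (334 ± 45) and NaCl+ (88.6 ± 30.6).

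**Figure D1:**
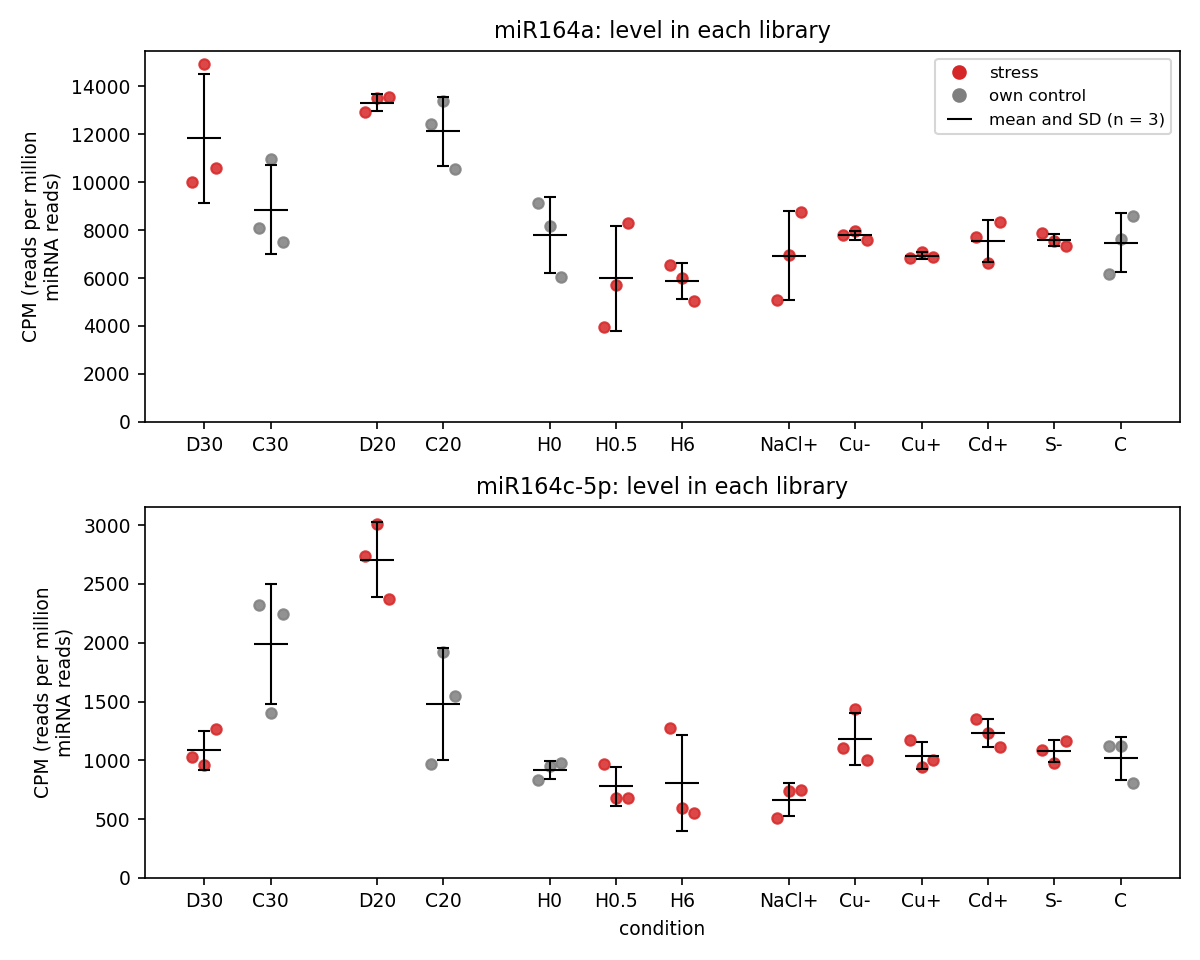
Level of miR164a and miR164c-5p in counts per 1000000 miRNA reads in each of the 39 libraries, by group (points, libraries; bars, mean and SD of 3 libraries; red, stress; grey, control). On this scale miR164a is highest in the leaf groups, with D20 at 13321 CPM on average, and miR164c-5p reaches 2706 CPM in D20 and 665 CPM in NaCl+.

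Over 12 comparisons the members were tested 28 times and called 2 times (7.14%), both times miR164c-5p, beside 238 calls in 1987 tests (12%) over all sequences. It fell under salinity, and its response to severe drought differed from its response to mild drought. miR164a passed the filter on low counts (edgeR's filterByExpr with a minimum count of 10) in all 12 comparisons, had log2 fold changes between -0.34 and 0.53 and was called in none. miR164b-3p passed the filter in 4 comparisons and was not called in any, and miR164c-3p passed it in none. The p-values measure the spread between 3 biological replicates, which in the drought groups came from separate batches of plants.

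In mild drought miR164c-5p was separated from its control without being called. miR164c-5p had 1026, 958 and 1270 CPM in the D30 leaves, against 2319, 1403 and 2243 CPM in the C30 leaves. All 3 D30 libraries lay below all 3 C30 libraries, and C30 replicate 2 was the closest to them. The ratio of the means was 0.546 and the log2 fold change was -1.01 (SE 0.23, edgeR adjusted p = 0.0739). Of the 166 sequences tested, 1 was called, 0.602%, and 36 (21.7%) had libraries that did not overlap between the groups. miR164c-5p was called with DESeq2 (-0.98, adjusted p = 0.00722), without the filter (-1.07, adjusted p = 0.00799) and with the replicate number as a block (-0.97, adjusted p = 0.0465). A one-way F test on CPM gave an unadjusted p of 0.0428. The other 4 of 8 settings did not call it, with edgeR adjusted p from 0.0572 (genome-mapped reads as library size) to 0.177 (joint fit of all 39 libraries). It was called when C30 replicate 2 was left out (-1.26, adjusted p = 0.0036). The other 5 of 6 fits with 1 library left out did not call it, with edgeR adjusted p up to 0.312.

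miR164a had 9998, 14924 and 10583 CPM in the D30 leaves, against 8083, 10958 and 7506 CPM in the C30 leaves. The groups overlapped, and the log2 fold change of 0.34 (SE 0.24, edgeR adjusted p = 0.521) was not called. Without D30 replicate 2, the highest library, it was 0.0045. The reads of all members together were 12929 ± 2601 CPM in D30 and 10842 ± 1360 CPM in C30, also with overlap. Of the genome-mapped reads, 28.3 to 34.6% were miRNA in D30 and 32.2 to 40.9% in C30, and the part of this in these values was not tested.

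In severe drought the order was the other way round. miR164c-5p had 2739, 3008 and 2370 CPM in the D20 leaves, against 972, 1918 and 1544 CPM in the C20 leaves. The groups did not overlap, and the lowest C20 library was replicate 1. The ratio of means was 1.83 and the log2 fold change was 0.58 (SE 0.29, edgeR adjusted p = 0.237), which was not called, while 33 of 167 sequences were (19.8%) and 63 (37.7%) did not overlap. With total miRNA reads in place of TMM scaling (edgeR's trimmed mean of M-values) it was 0.87 and called (adjusted p = 0.0419). That scaling moved the median of all sequences by 0.26. With 1 library left out the value ran from 0.39, without C20 replicate 1, to 0.96, without C20 replicate 2, and was not called in any of these fits. miR164a had 12918, 13489 and 13557 CPM in D20 and 12439, 13383 and 10532 CPM in C20, with a log2 fold change of -0.14 (SE 0.15, edgeR adjusted p = 0.576) that changed sign to 0.14 under total reads.

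The responses to the 2 drought levels differed for miR164c-5p. Each was measured against its own control, and the difference of the log2 fold changes, severe minus mild, was 1.69 (SE 0.42, edgeR adjusted p = 0.0437). Here 6 of 177 sequences were called, 3.39%. The direction held in all 12 fits with 1 library left out (1.44 to 1.95), and the call was lost in 8 of them. The 8 were those without D30 replicate 1 (adjusted p = 0.104), D30 replicate 2 (0.0718), D30 replicate 3 (0.0534), C30 replicate 1 (0.0715), C30 replicate 3 (0.0917), D20 replicate 2 (0.107), D20 replicate 3 (0.0664) or C20 replicate 3 (0.0612), each an edgeR adjusted p. With the replicate number as a block it was 1.74 and not called (adjusted p = 0.0583).

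The contrast also holds the difference between the controls, which were fully watered plants of 30 and 27 days. miR164c-5p averaged 1478 CPM in C20 and 1988 CPM in C30, and its log2 fold change between them was -0.35 (SE 0.34, edgeR adjusted p = 0.542). For miR164a the log2 fold change was 0.53 (SE 0.18, edgeR adjusted p = 0.209). No sequence of 167 was called by edgeR in this comparison (0%), 35 had an unadjusted p under 0.05, DESeq2 called 6 and a one-way F test on CPM gave 25 at an unadjusted p under 0.05. The D20 and D30 libraries themselves did not overlap, at 2370 to 3008 CPM in D20 and 958 to 1270 CPM in D30. How many of all sequences were also separated between D20 and D30 was not counted. Age, soil water and sampling day cannot be told apart between those groups.

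miR164a was not called in this contrast, with a value of -0.34 (SE 0.28, edgeR adjusted p = 0.511). miR164b-3p, the strand opposite the shared 5p sequence in MIR164b, gave -2.17 (SE 0.74, edgeR adjusted p = 0.117) from few reads. It had 10, 38 and 35 reads in D30, against 8, 15 and 17 in C30, and 5, 6 and 5 reads in D20, against 17, 9 and 8 in C20. The D20 libraries were below all C20 libraries, and the D30 and C30 libraries overlapped. In D20 against C20 alone miR164b-3p was below the filter on low counts. Of the sequences that passed it there, 37.7% did not overlap between the groups. Without D30 replicate 1, miR164b-3p was called in the contrast (-2.53, edgeR adjusted p = 0.043). That was the only call in 12 fits with 1 library left out, and 0 of 8 other settings called it.

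**Figure D2:**
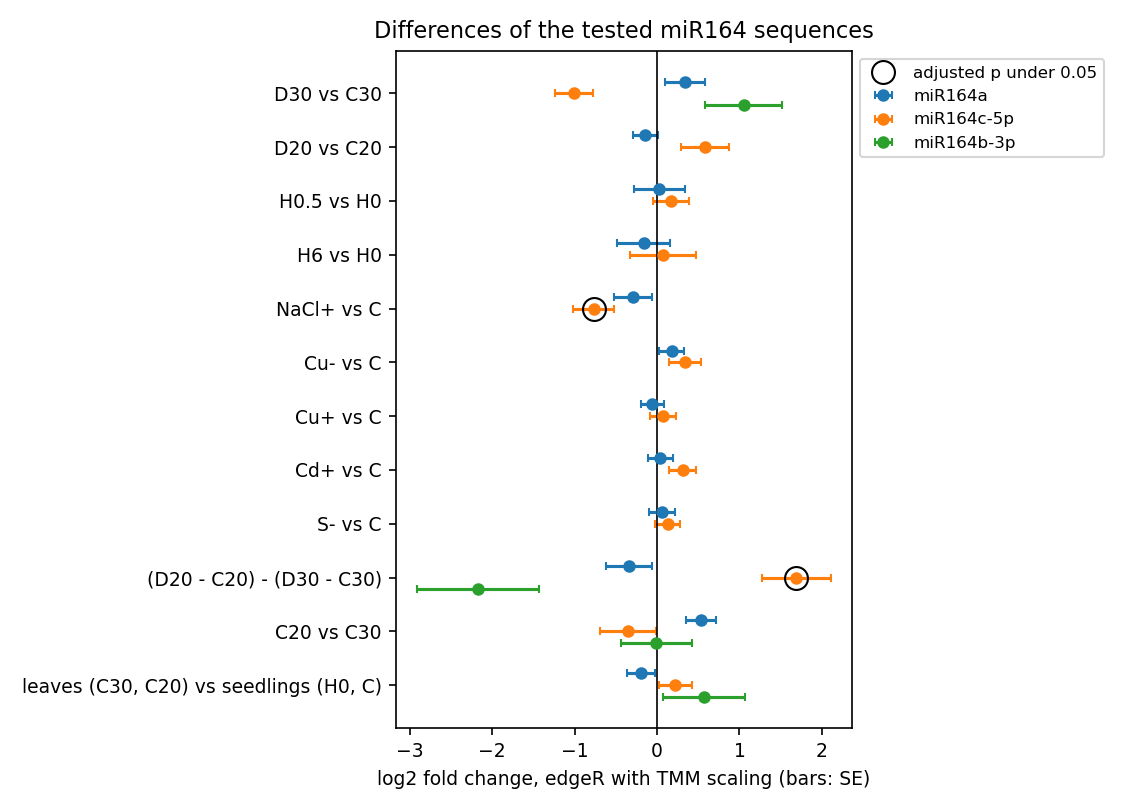
Log2 fold change with its standard error for miR164a and miR164c-5p in each comparison, and for miR164b-3p in the 4 where it was tested, from edgeR with TMM scaling (circles, adjusted p under 0.05). miR164a stays between -0.34 and 0.53, and miR164c-5p runs from -1.01 in D30 against C30 to 1.69 in the severe minus mild drought contrast.

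The share of the 5p reads that was miR164c-5p does not depend on scaling. It was 9.31, 6.03 and 10.7% in D30, against 22.3, 11.4 and 23% in C30, and 17.5, 18.2 and 14.9% in D20, against 7.25, 12.5 and 12.8% in C20. Neither drought group overlapped its control, and the shares lay on opposite sides of it. The mean log2 ratio of miR164c-5p to miR164a reads changed by -1.26 in mild and 0.78 in severe drought, each with p = 0.1 in a two-sided exact permutation test and 0.55 after adjustment over 11 comparisons. With 3 libraries against 3, p cannot go below 0.1. Without C20 replicate 1 the severe drought difference was 0.48. C20 against C30 gave -0.91 (p = 0.3 in the exact permutation test), and their shares overlapped. In the other 8 comparisons the exact or permutation p was 0.3 to 0.9 and the groups overlapped.

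**Figure D3:**
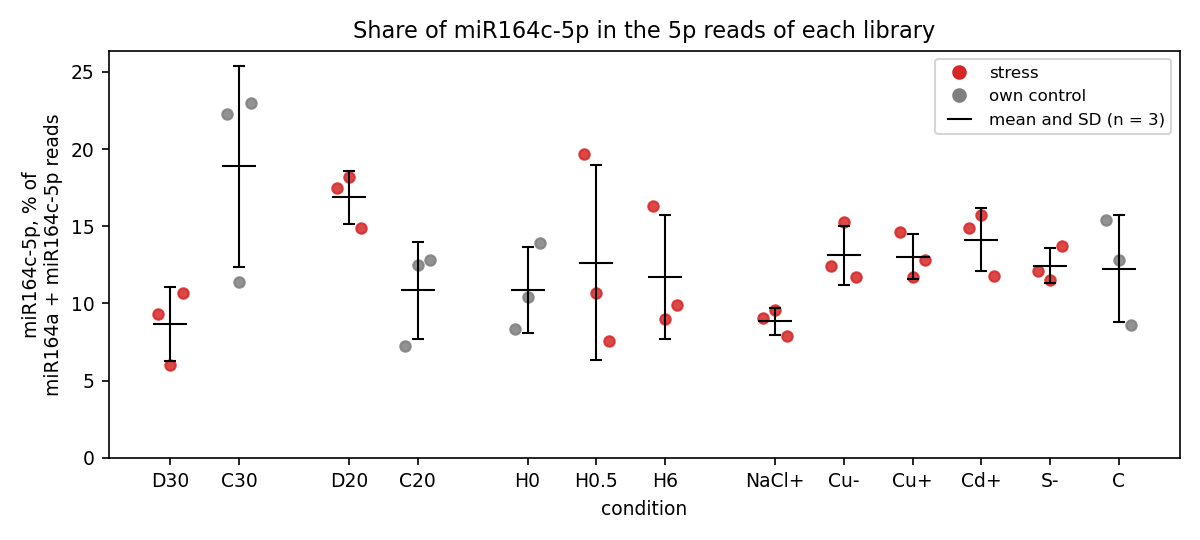
Share of miR164c-5p in the reads of both 5p strands, in percent, in each library by group (points, libraries; bars, mean and SD of 3). D30 averages 8.69% against 18.9% in C30, and D20 averages 16.9% against 10.9% in C20.

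In all other groups this share averaged 8.84 ± 0.873% (NaCl+) to 14.1 ± 2.07% (Cd+), with C at 12.3 ± 3.44% and H0 at 10.9 ± 2.8%. Because unmatched reads were trimmed at both ends and matched again, and because the 5p members differ at their last base, a trimmed read may have been counted for either. How many were is unknown.

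miR164c-5p fell in salt-treated seedlings. It had 506, 739 and 750 CPM in the NaCl+ seedlings, against 1123, 1125 and 808 CPM in C. The groups did not overlap, with C replicate 3 nearest to the salt-treated libraries. The ratio of means was 0.653 and the log2 fold change was -0.77 (SE 0.25, edgeR adjusted p = 0.0348). This comparison called 52 of 156 sequences (33.3%), and 77 (49.4%) did not overlap. The call was lost with total miRNA reads as scaling (-0.61, adjusted p = 0.0802), without the filter (-0.86, adjusted p = 0.0675), with the F test on CPM that the study used (-0.61, unadjusted p = 0.0553), and without NaCl+ replicate 1 (-0.57, adjusted p = 0.0888), NaCl+ replicate 3 (-0.79, 0.0676), C replicate 1 (-0.65, 0.147) or C replicate 2 (-0.70, 0.0846).

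miR164a had 5089, 6968 and 8761 CPM in NaCl+, against 6168, 7637 and 8604 CPM in C. These overlapped, and the log2 fold change of -0.29 (SE 0.23, edgeR adjusted p = 0.372) was not called. The NaCl+ libraries are the ones with the low miRNA share of 9.84 to 16.7%, against 36.9 to 41.2% in C, and the result depends on the denominator. Counted per 1000000 genome-mapped reads, miR164a was 685, 1166 and 862 in NaCl+, against 2543, 2818 and 3470 in C. On the same scale miR164c-5p was 68.2, 124 and 73.8 in NaCl+, against 463, 415 and 326 in C. Both were separated without overlap, and with genome-mapped reads as the library size edgeR gave -1.70 for miR164a (adjusted p = 1.47e-05) and -2.18 for miR164c-5p (adjusted p = 4.49e-07). On that scale the median of all tested sequences moved by -1.46 and 117 of 156 were called.

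**Figure D4:**
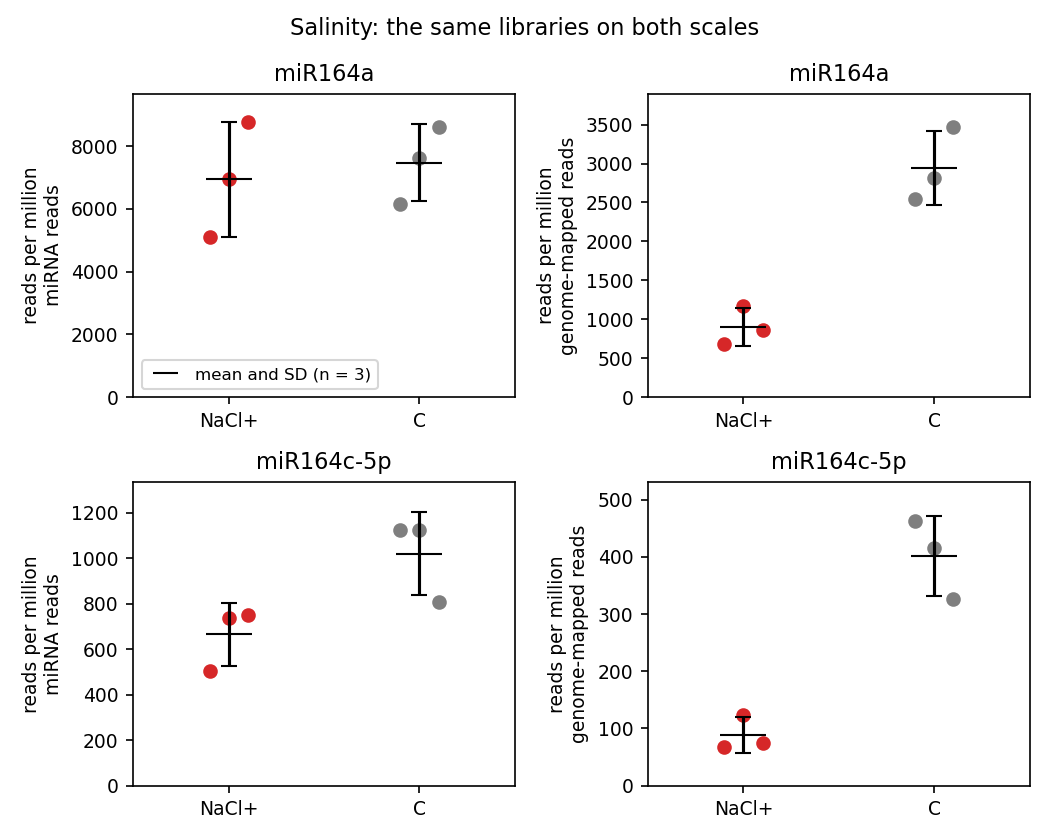
Reads of miR164a and miR164c-5p in the NaCl+ and C libraries, per 1000000 miRNA reads and per 1000000 genome-mapped reads (points, libraries; bars, mean and SD of 3). When counted per 1000000 miRNA reads, miR164a overlaps between the groups, and per 1000000 genome-mapped reads it averages 904 in NaCl+ against 2944 in C.

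Heat gave no call for miR164a or miR164c-5p, the only members that passed the filter in these comparisons. miR164a had 9137, 8153 and 6034 CPM in H0, 3970, 5689 and 8300 CPM in H0.5 and 6557, 6013 and 5056 CPM in H6. miR164c-5p had 832, 949 and 973 CPM in H0, 971, 683 and 678 CPM in H0.5 and 1275, 593 and 554 CPM in H6. The heat libraries overlapped the control in each case. For miR164a the SD was 2180 CPM in H0.5, 760 CPM in H6 and 1586 CPM in H0. For miR164c-5p it was 168, 406 and 75.4 CPM, in the same order. After 0.5 h the log2 fold changes were 0.03 (SE 0.31) for miR164a and 0.17 (SE 0.22) for miR164c-5p, with 2 sequences called (1.23% of those tested). After 6 h they were -0.16 (SE 0.32) and 0.07 (SE 0.40), with 11 of 162 called (6.79%). The edgeR adjusted p-values were 0.916 to 0.981. The signs are not fixed by the data: at 0.5 h miR164a was -0.38 and miR164c-5p -0.24 under total reads, and at 6 h miR164c-5p was -0.57 without H6 replicate 1.

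The metal and sulfur treatments gave 0 calls for the 5p strands, the only members that passed the filter there. Libraries of both 5p strands overlapped C in each. Without copper, miR164a had 7781, 7952 and 7589 CPM in Cu-, against 6168, 7637 and 8604 CPM in C, and miR164c-5p had 1105, 1433 and 1006 CPM in Cu-, against 1123, 1125 and 808 CPM in C. The log2 fold changes were 0.18 (SE 0.15) and 0.34 (SE 0.19), with edgeR adjusted p-values of 0.439 and 0.25, where 17 of 162 sequences were called (10.5%). The Cu- libraries fell inside or overlapped the C range for both.

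With excess copper, miR164a had 6842, 7096 and 6874 CPM and miR164c-5p 1169, 944 and 1006 CPM. The log2 fold changes were -0.06 (SE 0.14) and 0.07 (SE 0.16), each with an edgeR adjusted p of 0.862, and 2 of 161 sequences were called (1.24%). The 3 Cu+ libraries lay close together for miR164a, with an SD of 138 CPM against 1226 CPM in C.

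With cadmium, miR164a had 7707, 6620 and 8344 CPM and miR164c-5p 1354, 1230 and 1113 CPM. Cd+ replicate 3, at 1113 CPM, lay below the 2 highest C libraries. The log2 fold changes were 0.04 (SE 0.15, edgeR adjusted p = 0.935) and 0.31 (SE 0.16, edgeR adjusted p = 0.249), with 18 of 160 sequences called (11.2%). The RNA blot probe used for miR164 reads tgcacgtgccctgcttctcca. It forms Watson-Crick pairs with every base of miR164a and with all but the last base of miR164c-5p, where a G faces the t of the probe. By RNA blot the study reported more miR164 in cadmium-treated seedlings, with the same tendency, not significant, in its sequencing. Whether miR164c-5p adds to the signal of this probe was not tested.

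Without sulfate, miR164a had 7862, 7544 and 7337 CPM and miR164c-5p 1086, 980 and 1167 CPM. The log2 fold changes were 0.06 (SE 0.16, edgeR adjusted p = 0.939) and 0.13 (SE 0.15, edgeR adjusted p = 0.866). No sequence of 161 was called by edgeR (0%), 8 had an unadjusted p under 0.05, DESeq2 called 0 and the F test on CPM gave 15 at an unadjusted p under 0.05. These 5 comparisons share the C libraries, so their values are not independent.

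Unstressed leaves (C30 and C20) were also set against unstressed seedlings (H0 and C), 6 libraries each. The lowest, median and highest miR164a levels were 7506, 10745 and 13383 CPM in leaves, against 6034, 7895 and 9137 CPM in seedlings. For miR164c-5p they were 972, 1731 and 2319 CPM in leaves, against 808, 961 and 1125 CPM in seedlings. The ranges overlapped for both, and the leaf means were 1.38 and 1.79 times the seedling means. With TMM scaling the log2 fold changes were -0.20 (SE 0.17, edgeR adjusted p = 0.363) and 0.22 (SE 0.20, edgeR adjusted p = 0.408), while 96 of 185 sequences were called (51.9%). With total miRNA reads they were 0.44 (adjusted p = 0.0152) and 0.83 (adjusted p = 0.00177), both called, and the median of all sequences moved by 0.63. The direction for miR164a therefore depended on scaling. Organ, age, substrate and experiment cannot be told apart here.

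The 3p strands were at the limit of the depth. Over all libraries miR164b-3p made up 0.0235% of its reads and those of miR164a (287 of 1219551, exact 95% Clopper-Pearson interval 0.0209 to 0.0264%). miR164c-3p made up 0.049% of its reads and those of miR164c-5p (87 of 177498, interval 0.0393 to 0.0605%). These intervals cover counting error only. miR164a also comes from MIR164a, so the first share is not that of a single hairpin.

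miR164b-3p was most frequent in D30, at 0.0719% (interval 0.0572 to 0.0891%), against 0.0434% (0.031 to 0.0592%) in C30. In D20 it was 0.0138% (0.00792 to 0.0225%), against 0.0292% (0.0202 to 0.0408%) in C20. The intervals of D30 and C30 overlap slightly, and so do those of D20 and C20. In heat it was 0.0292% in H0, 0.0137% in H0.5 and 0.00875% in H6, from 7 to 17 reads in each H0 library, 3 to 5 in each H0.5 library and 1 to 3 in each H6 library. Each heated library had fewer reads than every H0 library, and the sequence was below the filter in both heat comparisons. Of the sequences that passed it, 22.7% did not overlap between H0.5 and H0 and 19.1% between H6 and H0.

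miR164c-3p had 6 reads in NaCl+, 0.219% of the reads of MIR164c strands (interval 0.0803 to 0.476%), against 4 reads and 0.0316% (0.00861 to 0.0809%) in C. All 3 NaCl+ libraries had reads, against 1 of 3 in C, and the intervals overlap slightly. In H0 it had 7 reads in 3 libraries, in H0.5 2 reads in 1 library, and in H6 0 of 10674. A count of 0 allows a share of up to 0.0281% if 3 counts are taken as the limit, and the exact 95% interval reaches 0.0346%. At such counts the sequence was below the filter in every comparison, and differences in these shares were not tested.

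**Figure D5:**
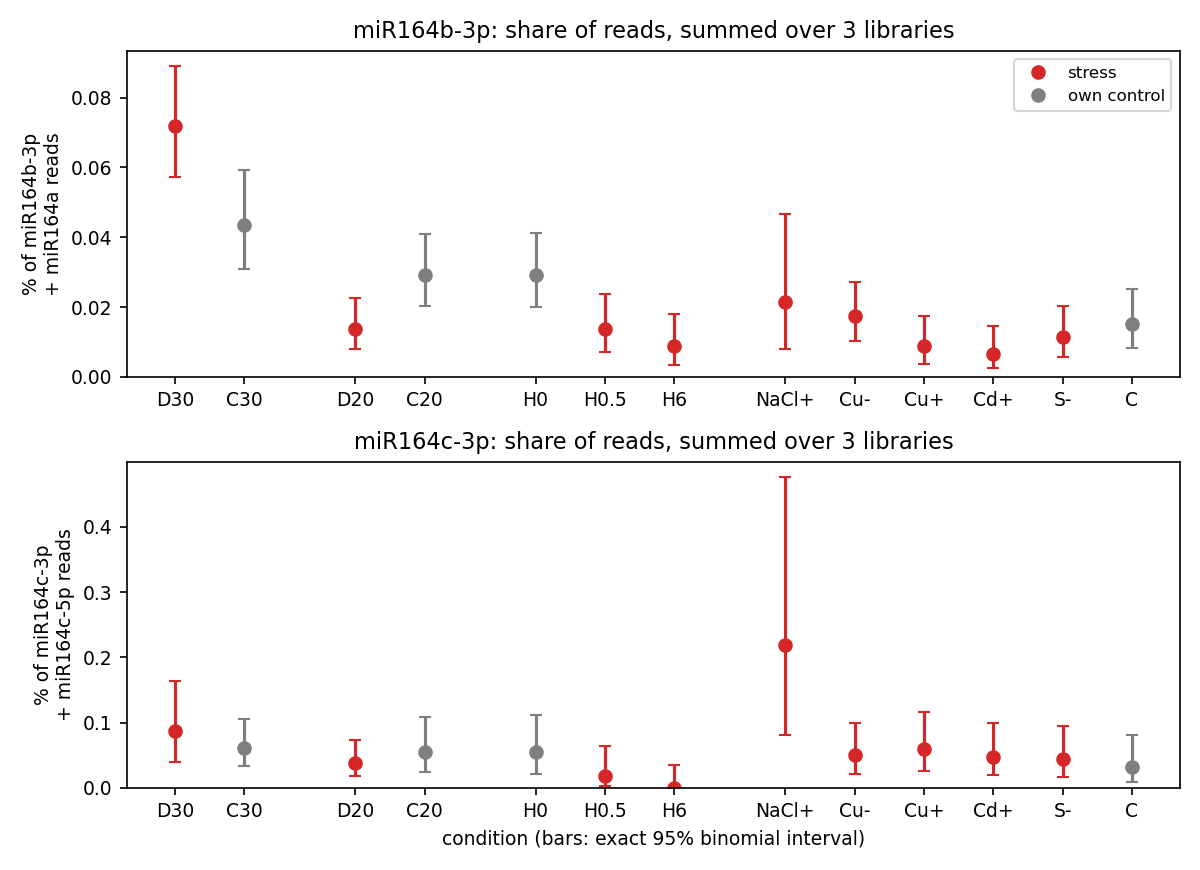
Share of 3p reads among the 3p and 5p reads, in percent, for miR164b-3p with miR164a and for miR164c-3p with miR164c-5p, pooled over the 3 libraries of each group (bars, exact 95% binomial intervals for counting error). miR164b-3p is highest in D30 at 0.0719%, and miR164c-3p in NaCl+ at 0.219%.

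Other miRNA families of leaf patterning, organ boundaries and auxin signalling were counted beside miR164: miR160, miR165, miR166, miR167, miR170, miR171, miR319, miR390, miR393 and miR396, 31 sequences in all. In salinity 8 of the 28 tested were higher and 5 lower (46.4%, against 33.3% of all), with a median log2 fold change of 0.17 against 0.13 over all tested. In severe drought 1 of 27 was higher and 7 lower (29.6%, against 19.8%), with a median of -0.43 against -0.11. After 6 h of heat 0 were higher and 6 of 28 lower (21.4%, against 6.79% of all). Without copper 5 of 28 were higher and 0 lower (17.9%, against 10.5%), with cadmium 3 were higher and 0 lower (10.7%, against 11.2%), and with excess copper 1 was higher and 0 lower (3.57%, against 1.24%). In mild drought, after 0.5 h of heat, without sulfate and in C20 against C30, 0 were called. Leaves against seedlings gave 7 higher and 4 lower of 28 (39.3%, against 51.9% of all).

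In salinity the called list members with the smallest adjusted p are given here. They were picked by that value in this same comparison, so the size of their changes cannot be set against that of miR164c-5p. miR396a-5p, which acts on growth-regulating factors of the leaf, had 2139, 990 and 1044 CPM in NaCl+, against 132, 122 and 104 CPM in C (log2 fold change 3.48, SE 0.41, edgeR adjusted p = 3.8e-05). miR167a-3p, the partner strand of a miRNA of auxin response factors, had 399, 207 and 314 CPM in NaCl+, against 62.8, 55.2 and 77.8 CPM in C (2.10, SE 0.35, edgeR adjusted p = 0.000749). Both rose without overlap. miR160a-3p, also a partner strand from an auxin response factor family, had 88.8, 103 and 149 CPM in NaCl+, against 407, 657 and 556 CPM in C (-2.42, SE 0.28, edgeR adjusted p = 3.8e-05). The shared sequence of miR166b-5p and miR166a-5p, partner strands of a family that sets leaf polarity, had 22, 32.3 and 42.2 CPM in NaCl+, against 150, 169 and 153 CPM in C (-2.46, SE 0.28, edgeR adjusted p = 3.79e-05). Both fell without overlap. Of all sequences tested in this comparison, 49.4% did not overlap.

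In the severe minus mild drought contrast 2 of the 27 tested list members were called (7.41%, against 3.39% of all). Both are partner strands, and both went in the direction opposite to miR164c-5p. The list's median was -0.20 against 0.07 over all tested. miR160a-3p had 359, 185 and 171 CPM in D20 and 620, 597 and 855 CPM in C20, beside 917, 917 and 1213 CPM in D30 and 688, 752 and 807 CPM in C30, a difference of -2.03 (SE 0.40, edgeR adjusted p = 0.0211). miR396b-3p had 246, 149 and 138 CPM in D20 and 385, 287 and 359 CPM in C20, beside 593, 423 and 504 CPM in D30 and 452, 334 and 301 CPM in C30, a difference of -1.44 (SE 0.34, edgeR adjusted p = 0.0437). Both were below their controls in all severe drought libraries, but they were picked by adjusted p in a contrast that holds these libraries. In D20 against C20, 37.7% of all tested sequences did not overlap.

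The patterns over the 13 conditions were compared by Pearson's r of the group means of log2(CPM + 1), among 122 sequences with a mean of at least 10 CPM. The closest to miR164a were miR5629 (0.95), the shared sequence of miR172d-3p and miR172c (0.93), the shared sequence of miR162b-5p and miR162a-5p (0.93), that of miR162b-3p and miR162a-3p (0.91) and miR5652 (0.90). The closest to miR164c-5p were miR172d-3p and miR172c (0.84), miR5652 (0.82), miR5629 (0.82), miR447b with miR447a-3p (0.82) and miR168b-5p with miR168a-5p (0.79). miR164a and miR164c-5p had r = 0.77 with each other. These points share libraries, controls and the split between leaves and seedlings, and are given as a description. By Spearman's rho 4 of the 5 closest to miR164c-5p stayed among its closest 5, and 0 of those closest to miR164a did.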

How the data were processed

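Small RNA of rosette leaves and seedlings was sequenced in 39 libraries. The deposited values are read counts per mature miRNA, made by the authors: reads under 17 bases were removed, matched to miRBase mature miRNAs plus added sequences with countreads_mirna.pl, and unmatched reads were trimmed at both ends and matched again. Genome mapping used Bowtie 1.0.0 and TAIR10, per the submitters' notes. RNA integrity scores were deposited with the libraries. Columns of fold changes and p-values hold the authors' comparisons and were not used. Names were joined by sequence (353 sequences), and control values repeated between sheets were equal.

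Each pair of groups was fitted with edgeR 4.0.16 in R 4.3.3 (TMM, filterByExpr with a minimum count of 10, quasi-likelihood test, adjusted p under 0.05), checked on simulated counts. Alternatives were DESeq2 1.42.0, other scalings, no filter, a joint fit, the authors' F test on CPM, a replicate block and leaving out each library. Same-numbered libraries deviated together in H6 against H0 (r of 0.351, 0.722 and 0.565) and in Cu+ against C (0.244, 0.329 and 0.189). Only there was each r over 0.1. The same C libraries gave -0.324, -0.458 and 0.047 with Cu-. It is not stated whether the numbers mark shared batches, and the main fits used no block. All 4 members were named, with up to 4 called list members by smallest adjusted p where a member was called and the 5 sequences of most similar pattern. The members and lists were chosen with earlier results of these data known.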

Additional observations from a re-analysis of the deposited data

Results flagged for a closer look

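The response of miR164c-5p to severe drought minus its response to mild drought, each against its own control, was 1.69 on the log2 scale in edgeR (SE 0.42, adjusted p = 0.0437). It stands out because the log2 fold changes of the same sequence had opposite signs at the 2 drought levels. Stressed and control libraries did not overlap at either level, as for 21.7% of all tested sequences in mild and 37.7% in severe drought. The contrast also holds the difference between the controls, which was -0.35 (C20 against C30). Neither response was called on its own, at -1.01 for mild and 0.58 for severe drought. The replicate block gave 1.74 (adjusted p = 0.0583), and leaving out 1 library gave 1.44 to 1.95, with the call lost in 8 of 12 cases.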

How the results depend on the processing

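Of the tested results, the calls of miR164c-5p depended most on the processing. Members called in mild drought were 1 in place of 0 with no filter, DESeq2, the F test, the replicate block and without C30 replicate 2 (leaving out a library gave 0 to 1). In severe drought they were 1 in place of 0 with total miRNA reads or the F test. After 6 h of heat the F test gave 2, both 3p strands. In salinity they were 0 with total miRNA reads or no filter, 2 with genome-mapped reads, and 0 to 1 with 1 library left out. The F test also gave 1 there, but it was miR164c-3p in place of miR164c-5p. In the severe minus mild contrast the block gave 0, and leaving out a library gave 0 to 1. Without D30 replicate 1 the call was miR164b-3p in place of miR164c-5p. In leaves against seedlings total miRNA reads gave 3 and the F test 4, in place of 0, beside 66.5% and 46.1% of all sequences. The block changed no other member call. Whether the numbers mark the plant batches of the drought groups is not stated, so the block values for mild drought (adjusted p = 0.0465) and for the severe minus mild contrast (0.0583) may or may not be those of a paired design. Same-numbered libraries did not all correlate over 0.1 there. In H6 against H0 and Cu+ against C the block called 19 in place of 11 and 0 in place of 2 sequences. The causes were not tested.

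Uncalled values near 0 changed sign. In severe drought miR164a was 0.14 with total reads, 0.14 with the F test and 0.05 with a joint fit. After 0.5 h of heat it was -0.15 with RLE, -0.38 with total reads, -0.34 with genome-mapped reads, -0.16 with no filter, -0.12 with DESeq2, -0.38 with the F test, -0.29 with the joint fit and -0.02 with the block. There miR164c-5p was -0.02, -0.24, -0.21, -0.03, -0.24 and -0.12 under RLE, total, genome-mapped, no filter, F test and joint fit. After 6 h miR164c-5p was -0.19 with total reads, -0.26 with genome-mapped reads, -0.04 with no filter, -0.0034 with DESeq2, -0.19 with the F test, -0.05 with the joint fit and -0.07 with the block. miR164a was 0.01 in Cu+ with no filter, -0.0043 in Cd+ with genome-mapped reads, and 0.44, 0.09 and 0.44 in leaves with total reads, genome-mapped reads and the F test.

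With 1 library left out, miR164a ran from -0.13 to 0.11 in D20, -0.41 to 0.24 in H0.5, -0.50 to 0.05 in H6, -0.02 to 0.32 in Cu-, -0.23 to 0.07 in Cu+, -0.05 to 0.21 in Cd+, -0.05 to 0.22 in S- and -0.28 to 0.02 in leaves. miR164c-5p ran from -0.05 to 0.21 in H0.5, -0.57 to 0.07 in H6, -0.01 to 0.45 in Cu- and -0.05 to 0.12 in Cu+, and miR164b-3p from -0.47 to 0.17 in C20 against C30. The log2 ratio of miR164c-5p to miR164a ran from -0.27 to 0.52 in H0.5, -0.20 to 0.31 in H6, -0.12 to 0.35 in Cu-, -0.13 to 0.34 in Cu+, -0.0042 to 0.47 in Cd+ and -0.21 to 0.27 in S-. Scaling moved the median of all sequences by -0.39 and -0.22 after 0.5 h and 6 h of heat with total reads. Over all alternatives the number of sequences called ran from 0 to 28 in D30 against C30 (1 in the report), 7 to 59 in D20 against C20 (33 in the report), 1 to 29 in H0.5 against H0 (2 in the report), 0 to 27 in H6 against H0 (11 in the report), 45 to 117 in NaCl+ against C (52 in the report), 0 to 46 in Cu- against C (17 in the report), 0 to 23 in Cu+ against C (2 in the report), 0 to 39 in Cd+ against C (18 in the report), 0 to 15 in S- against C (0 in the report), 2 to 35 in severe minus mild drought (6 in the report), 0 to 25 in C20 against C30 (0 in the report) and 86 to 141 in leaves against seedlings (96 in the report), which includes F tests on unadjusted p.

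Depth limits the 3p strands, of which miR164b-3p had under 10 reads in 32 of 39 libraries and miR164c-3p in all 39.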
